A study of Homo sapiens with 18 samples.

Results

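Messenger RNA levels of 9 genes for secreted matrix glycoproteins were followed in MDA-MB-231 cells, out of 62703 genes in the deposited tables. The 9 genes were the tenascin TNC, the thrombospondins THBS1 and THBS2, the SPARC family genes SPARC and SPOCK1, the basement membrane proteoglycans HSPG2 and AGRN, and the fibrillins FBN1 and FBN2. The list of names was selected on measured changes in these libraries, because TNC had moved in opposite directions in the knockdowns of EZH2 and E2F1 and HSPG2 had fallen in the knockdown of EZH2. For this reason the values of TNC in both knockdowns, and of HSPG2 in the EZH2 knockdown, are given as a description with no test. MDA-MB-231 is an established cell line from a triple-negative breast tumour, a subtype without estrogen receptor, progesterone receptor or amplified HER2. The 10 distinct poly(A) RNA-seq libraries formed 5 groups of 2. In the knockdown experiment, cells were transduced for 24 h with lentivirus from the pLKO.1 vector and selected for 72 h in puromycin at 2 µg/ml. The hairpin was a control (control shRNA) or targeted EZH2 (shEZH2) or E2F1 (shE2F1), with a single hairpin per target. In the drug experiment, cells received DMSO, the solvent, or GSK126 at 1 µM for 72 h. EZH2 is the methyltransferase of the Polycomb repressive complex PRC2, GSK126 inhibits its catalytic activity, and E2F1 is a transcription factor that drives the cell cycle. The labels do not state that the 2 libraries of a group came from separate cultures, so that p-values measure only the spread between these libraries, which may be technical.

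The extracellular matrix is built of collagens, proteoglycans and glycoproteins that cells secrete and then bind through integrins and other receptors. Tenascin-C, thrombospondins and SPARC are called matricellular proteins, since they modulate adhesion, growth factor activity and matrix assembly more than they bear load. Perlecan, the product of HSPG2, and agrin, the product of AGRN, are large heparan sulfate proteoglycans of basement membranes that bind dystroglycan. Fibrillins polymerize into microfibrils, on which latent TGF-β binding proteins are anchored. Tenascin-C and thrombospondin-1 have been studied widely in breast cancer as matrix products linked to invasion and metastasis.

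Total expected counts ran from 13198935 in shEZH2 replicate 1 to 20055520 in DMSO replicate 1. At these depths, the limit of 3 counts that a count of 0 allows corresponded to 0.144 to 0.226 CPM (counts scaled to a common library size), for counting error only. The knockdowns were seen in their target transcripts: EZH2 changed by a log2 value of -1.79 ± 0.12 (SE) in shEZH2, and E2F1 by -2.54 ± 0.24 in shE2F1. E2F1 was also lower in shEZH2, at -1.59 ± 0.23 on the log2 scale (edgeR adjusted p = 0.000172). Of the markers of the line, VIM stood at 1185 to 2860 TPM. Of 7 luminal epithelial markers, ESR1 was at no more than 0.17 TPM and PGR was listed at 0 in all 10 libraries, while KRT8 stood at 1126 to 1470 TPM, ERBB2 at 20 to 35.6, EPCAM at 12.4 to 37.7, GATA3 at 5.86 to 13.8 and CDH1 at 0.26 to 4.50 TPM. Of 7 fibroblast markers, DCN was listed at 0 in all 10 libraries, while COL1A1 stood at 3.49 to 31.4 TPM and PDGFRB at 2.42 to 5.87 TPM. LUM was at 0.12 to 6.05 TPM and COL1A2 at 0.39 to 0.98 TPM. PDGFRA reached no more than 0.28 TPM and COL3A1 no more than 0.16 TPM. The 7 fibroblast markers together summed to 28.8 and 39.2 TPM in shEZH2 against 12.6 and 10.5 TPM in the control shRNA libraries, 13.5 and 14.1 TPM in shE2F1, and 9.97 to 13.7 TPM in the drug experiment. The 5 leukocyte and endothelial markers summed to 38.35 and 31.01 TPM in shEZH2, 146 and 158 TPM in shE2F1, 80.8 and 79.1 TPM in control shRNA and 62.0 to 74.7 TPM in the drug experiment. CD68 reached 30.8 to 158 TPM, whereas PTPRC was at no more than 0.46 TPM and CD3E was listed at 0 in all 10 libraries. The part of these markers in the results below was not tested. The summed level of 6 markers of the line was 2739 and 2982 TPM in shEZH2 and 4243 to 5407 TPM in the other 8 libraries.

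Levels between genes were compared in TPM, a share of all transcripts that divides by gene length. In the control shRNA libraries THBS1 was the highest of the 9, at 305 and 335 TPM. AGRN followed at 154.6 and 108.1 TPM, HSPG2 at 78.9 and 54.2 TPM, and FBN1 at 19.4 and 14.8 TPM. TNC stood at 3.83 and 6.38 TPM, SPARC at 3.02 and 3.11 TPM, and SPOCK1 at 1.59 and 0.34 TPM. THBS2 and FBN2 were at the limit of detection, with 0 to 5 and 0 to 3 expected counts in any of the 10 libraries. They did not pass the filter on low counts and were not tested, so that 7 of the 9 genes entered the tests. The 7 tested genes therefore spanned a highly transcribed thrombospondin, 4 genes at intermediate level and a pair, SPARC and SPOCK1, that rested on 3 to 71 expected counts per library.

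**Figure D1:**
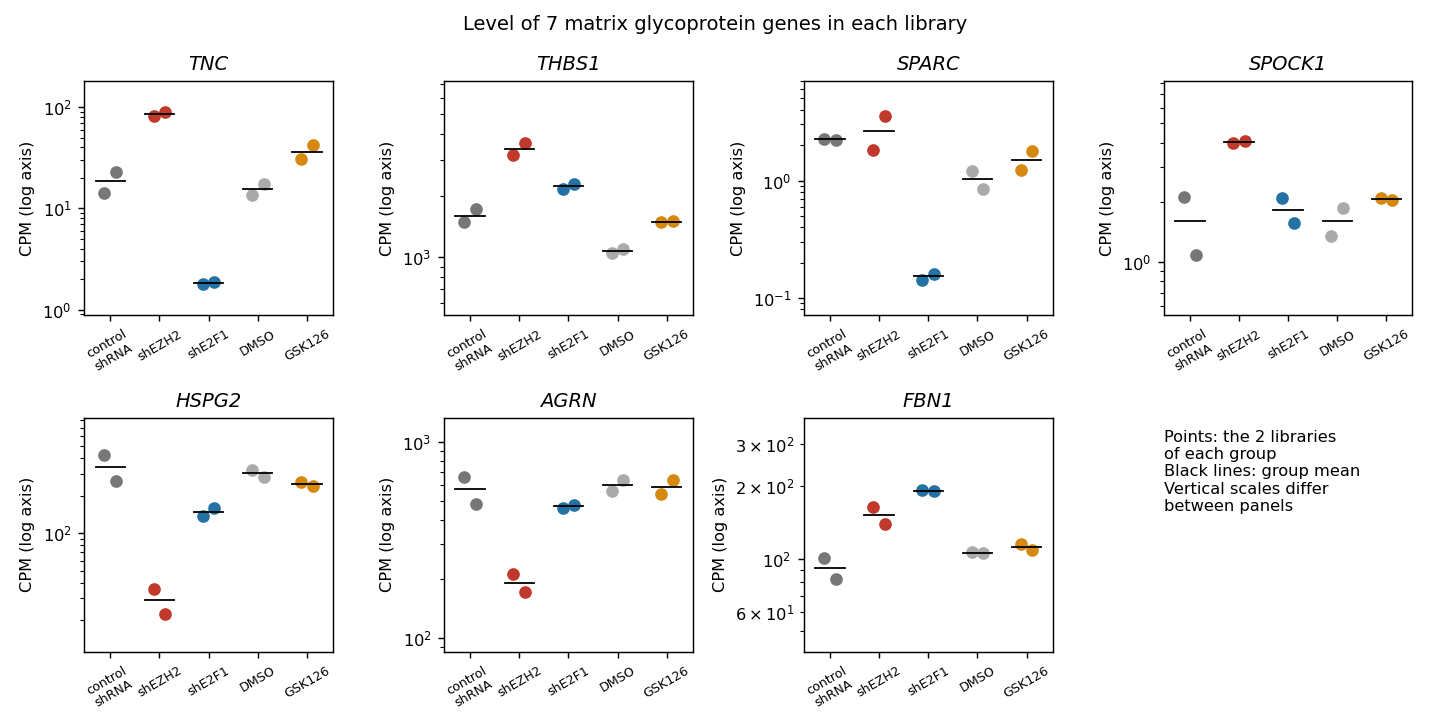
Level of each of the 7 tested genes in CPM on a log axis, with 1 point for each of the 10 libraries and a black line at the mean of each group. TNC was highest in shEZH2 (80.9 and 90.4 CPM) and lowest in shE2F1 (1.77 and 1.89 CPM), HSPG2 and AGRN were lowest in shEZH2, and FBN1 was highest in shE2F1.

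The sequences just upstream of TNC and HSPG2 are shown because these genes had the largest rise and the largest fall among the members in shEZH2. Both are the 250 bases before the RefSeq start on the minus strand of GRCh38.p14, at chr9:115118158-115118407 for TNC and chr1:21937311-21937560 for HSPG2. Capitals mark the TATA motifs (TATAAA or TATATAA, gene strand) and GC boxes (GGGCGG, both strands, overlaps counted).
TNC: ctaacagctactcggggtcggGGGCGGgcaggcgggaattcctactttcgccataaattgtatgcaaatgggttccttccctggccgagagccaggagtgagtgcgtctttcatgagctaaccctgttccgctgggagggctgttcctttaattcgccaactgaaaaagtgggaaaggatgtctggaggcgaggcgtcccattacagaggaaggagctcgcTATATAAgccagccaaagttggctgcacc
HSPG2: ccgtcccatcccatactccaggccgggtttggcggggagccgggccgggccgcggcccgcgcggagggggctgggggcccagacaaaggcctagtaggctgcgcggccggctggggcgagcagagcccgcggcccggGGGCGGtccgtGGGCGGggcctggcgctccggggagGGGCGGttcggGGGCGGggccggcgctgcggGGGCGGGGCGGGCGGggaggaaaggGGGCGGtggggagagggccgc
The TNC sequence held a TATA motif beginning 29 bases before the start, 1 GC box, 12 CpG dinucleotides and 54.8% G and C. The HSPG2 sequence held no such TATA motif, 8 GC boxes, 33 CpG dinucleotides and 82.8% G and C. Over 35116 RefSeq promoters of the same length, the median was 58.0% G and C with 11 CpG dinucleotides, 7.72% held the TATA motif and 42.6% a GC box. Of the 7 members with an entry in the RefSeq table, THBS2 was the other with a TATA motif, also 29 bases before its start. An E2F octamer (TTTCCCGC, TTTGGCGC, TTTCGCGC or TTTGCCGC, both strands) occurred in 0 of these 7 sequences and in 2.79% of all promoters. The motifs were chosen after the values were known, and a match or its lack in this window is a description only. AGRN and SPOCK1 were not matched.

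TNC (ENSG00000041982, chr9:115019575-115118207, minus strand, GRCh38) encodes tenascin-C, a many-armed glycoprotein that interferes with adhesion to fibronectin. It was measured at 14.1 and 23.0 CPM in control shRNA, 80.9 and 90.4 CPM in shEZH2, 1.77 and 1.89 CPM in shE2F1, and in the drug experiment 13.7 and 17.4 CPM with DMSO and 30.5 and 41.8 CPM with GSK126. Both shEZH2 libraries lay above and both shE2F1 libraries below every other library. The log2 change was 2.20 ± 0.18 in shEZH2 and -3.34 ± 0.25 in shE2F1, and between the hairpins 5.54. The mean of the highest group was 46.8 times that of the lowest, the widest ratio among the members with over 3 counts in every library. In descending order the group means ran shEZH2, GSK126, control shRNA, DMSO, shE2F1, and of these neighbours only control shRNA and DMSO overlapped. The order was the same in TPM, where shEZH2 stood at 22.9 and 26.1 TPM and shE2F1 at 0.60 and 0.48 TPM. The gene DELEC1 overlaps TNC on the opposite strand, and the strand setting of the counting is not stated. In bulk RNA, fewer cells making a transcript and less of it per cell cannot be told apart.

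Both inhibitor libraries stood above both DMSO libraries for TNC, in a comparison that shares no library with the knockdowns. TNC was higher by 1.22 ± 0.20 on the log2 scale, and by 1.15 and 1.27 within replicate numbers 1 and 2. In the edgeR quasi-likelihood test its adjusted p was 0.731, and its unadjusted p, 0.000749, ranked 15 among 14632 genes. By edgeR, 0 genes (0%) were called in GSK126 against DMSO with both an adjusted p under 0.01 and more than a 2-fold change, and 577 had an unadjusted p under 0.05. DESeq2 called 11 genes, of which TNC was the single member (adjusted p = 0.000461). An edgeR fit with the replicate numbers as a block called 68 genes, and TNC was again the 1 member. The labels do not give these numbers as pairs, though the numbers deviated together between DMSO and GSK126 (r = 0.43). Fits that left out a library kept 1 library in an arm, which is assumed to vary like the other arm, and called 37 to 43 genes in place of 0. TNC stood at 0.98 to 1.43 in them and was called in all but the fit without GSK126 replicate 2. The change of TNC in shEZH2 was larger than that in GSK126 by 0.99 ± 0.30 on the log2 scale, given as a description since shEZH2 entered the choice of the gene.

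THBS1 (ENSG00000137801, chr15:39581079-39599466, plus strand) encodes thrombospondin-1, a trimeric glycoprotein that inhibits angiogenesis, binds CD47 and activates latent TGF-β. It was at 1481 and 1714 CPM in control shRNA, 3143 and 3628 CPM in shEZH2, 2161 and 2286 CPM in shE2F1, and in the drug experiment 1044 and 1102 CPM with DMSO and 1485 and 1498 CPM with GSK126. Both hairpins stood above the control and GSK126 above DMSO, with no overlap in any of these comparisons. THBS1 rose in shEZH2 by 1.07 ± 0.11 on the log2 scale (edgeR adjusted p = 1.86e-05). In shE2F1 it was higher by 0.47 ± 0.11 (adjusted p = 0.00459), which is under 2-fold and was not called. Between the hairpins it was 0.60 higher in shEZH2 (adjusted p = 0.000611), again under 2-fold. The shEZH2 call rests on the 2-fold limit: the change was 0.97 without control shRNA replicate 1, 0.98 without shEZH2 replicate 2, and 0.75 after adjustment for GC content and length. In GSK126 THBS1 was higher by 0.47 ± 0.09 (unadjusted p = 0.00134, rank 24 of 14632, adjusted p = 0.749), and by 0.51 and 0.44 within the replicate numbers. The change was 0.61 ± 0.15 larger in shEZH2 than in GSK126 (adjusted p = 0.0082 for the difference, under 2-fold). THBS1-AS1 and FSIP1 overlap the gene on the opposite strand.

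THBS2 (ENSG00000186340, chr6:169215780-169254050, minus strand), the closely related thrombospondin-2, was at the limit of detection. Its expected counts were 3 and 0 in control shRNA, 1 and 0 in shEZH2, 1 and 2 in shE2F1, 5 and 1 in DMSO, and 2 and 4 in GSK126. The groups overlapped and no fold is given. Among the other tenascins and thrombospondins of the list, 2 of 6 were tested, of which TNXB, for the large tenascin-X, rose in shE2F1 by 1.67 ± 0.16 (adjusted p = 1.94e-05). TNXB stood at 23.5 and 16.1 CPM in control shRNA, 61.3 and 66.3 CPM in shE2F1, and 11.8 and 13.6 CPM in shEZH2. The tenascin genes TNXB and TNC thus had opposite signs in each knockdown, with TNXB at -0.65 ± 0.18 in shEZH2 (adjusted p = 0.0088, under 2-fold).

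SPARC (ENSG00000113140, chr5:151661096-151686975, minus strand) encodes osteonectin, a collagen-binding matricellular protein. Its expected counts were 43 and 37 in control shRNA, 24 and 61 in shEZH2, 3 and 3 in shE2F1, 24 and 15 in DMSO, and 21 and 30 in GSK126. Both shE2F1 libraries lay below the other 8, and shEZH2 overlapped the control. SPARC fell in shE2F1, by 3.83 ± 0.53 on the log2 scale (edgeR adjusted p = 0.000222). From the summed counts, 6 in shE2F1 and 80 in control shRNA, the control level was 14.8 times that in shE2F1, with an exact 95% interval of 6.50 to 41.5 that covers counting error only. In shEZH2 the change was 0.25 ± 0.37 (adjusted p = 0.593) and took the opposite sign, -0.31, without shEZH2 replicate 2. SPARC was higher in shEZH2 than in shE2F1 by 4.08 (adjusted p = 6.84e-05). In GSK126 the change was 0.54 (adjusted p = 1), and the replicate numbers gave 0.03 and 1.06.

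SPOCK1 (ENSG00000152377, chr5:136975298-137598379, minus strand) encodes testican-1, a proteoglycan of the SPARC family. It was at 2.12 and 1.08 CPM in control shRNA, 3.99 and 4.09 CPM in shEZH2, 2.11 and 1.56 CPM in shE2F1, and in the drug experiment 1.35 and 1.86 CPM with DMSO and 2.11 and 2.06 CPM with GSK126. In CPM the shEZH2 libraries stood above the other 8, which overlapped except for GSK126 over DMSO. This did not hold in TPM. There shEZH2 replicate 2, at 1.70, lay below replicate 1 of shE2F1 (2.21), DMSO (2.00) and GSK126 (2.09). SPOCK1 rose in shEZH2 by 1.31 ± 0.36 (edgeR adjusted p = 0.00949), a call that was lost in 5 of the 6 fits that left out a library, in DESeq2 (adjusted p = 0.0177) and after the GC and length correction (adjusted p = 0.0224). The fits without a library ranged from 0.92 without control shRNA replicate 2 to 1.88 without control shRNA replicate 1. With the effective length offset the change in shEZH2 was 1.19 and was not called (edgeR adjusted p = 0.151). In shE2F1 the change was 0.18 ± 0.37 (adjusted p = 0.721) and its sign turned without control shRNA replicate 2, at -0.20. Of the 6 other SPARC-family genes listed, 1 passed the filter and it was not called in either knockdown.

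HSPG2 (ENSG00000142798, chr1:21822244-21937310, minus strand) encodes perlecan, the main heparan sulfate proteoglycan of basement membranes. It was at 419 and 262 CPM in control shRNA, 35.8 and 22.5 CPM in shEZH2, 137 and 158 CPM in shE2F1, and in the drug experiment 318 and 283 CPM with DMSO and 258 and 236 CPM with GSK126. The shEZH2 libraries were the lowest, the shE2F1 libraries lay between them and the rest, and control shRNA overlapped DMSO. The mean control level was 11.7 times that in shEZH2, and the log2 change was -3.57 ± 0.25. In shE2F1, HSPG2 fell by 1.22 ± 0.22 on the log2 scale (edgeR adjusted p = 0.00114). This call was lost without control shRNA replicate 1, at -0.84 (adjusted p = 0.00533), and without shE2F1 replicate 1, at -1.12 (adjusted p = 0.0204). The same control libraries serve both knockdowns. In GSK126 the change was -0.28 ± 0.12 (unadjusted p = 0.0525, adjusted p = 1), and -0.30 and -0.26 within the replicate numbers. HSPG2 was thus lower in CPM in both inhibitor libraries than in both DMSO libraries. In TPM these groups overlapped, at 50.4 and 41.3 in GSK126 against 54.5 and 45.0 in DMSO. The difference of the HSPG2 change in shEZH2 from that in GSK126 was -3.28 ± 0.31, a description since shEZH2 entered the choice.

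AGRN (ENSG00000188157, chr1:1020120-1056118, plus strand) encodes agrin, the heparan sulfate proteoglycan that clusters acetylcholine receptors at the neuromuscular junction. It was at 661 and 480 CPM in control shRNA, 212 and 171 CPM in shEZH2, 460 and 478 CPM in shE2F1, and in the drug experiment 562 and 639 CPM with DMSO and 538 and 640 CPM with GSK126. Both shEZH2 libraries lay below the other 8. AGRN fell in shEZH2 by 1.59 ± 0.15 on the log2 scale (edgeR adjusted p = 1.38e-05). In shE2F1 the change was -0.29 ± 0.15 (adjusted p = 0.131), and the hairpins differed by -1.30 (adjusted p = 3.15e-05). In GSK126 it was -0.03 ± 0.12 (adjusted p = 1). The change in shEZH2 minus that in GSK126 was -1.55 ± 0.22, and this difference passed the test (adjusted p = 0.000325). Agrin is made in several isoforms, and the effective length that RSEM assigned to AGRN was 4930 and 4534 bases in shEZH2 against 5656 to 6352 bases in the other 8 libraries. With these lengths as an offset the fall in shEZH2 was -1.21, the difference between the hairpins was -0.96 and no longer called, and in TPM the level went from 154.6 and 108.1 to 69.8 and 58.9. An unnamed gene, ENSG00000242590, overlaps AGRN on the same strand, and 4.12% of the 31-base stretches of AGRN transcripts also occur in other genes.

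HSPG2 and AGRN shared a property that their choice did not use, a high content of G and C in the transcript, 64.5% and 67.9%. With all tested genes split into 10 bins by GC content, both fell in the highest bin. The median log2 change of that bin in shEZH2 was -0.51, against 0.22 in the lowest bin, whereas in shE2F1 the medians of the same bins were 0.03 and 0.01. The other 5 tested members had 44.2% to 52.5% G and C. Once the libraries were corrected for GC content and length, HSPG2 stood at -3.42 in shEZH2, AGRN at -1.28 and was still called, while THBS1 at 0.75 and SPOCK1 at 1.12 were no longer called. FBN1 moved from 0.72 to 0.34. In shEZH2 the change of every tested member but SPARC lay outside the middle 50% of genes of its own bin. By definition 50% of the genes of a bin lie outside this range. TNC and HSPG2 were chosen on their change in shEZH2, so that nothing is read from this.

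**Figure D2:**
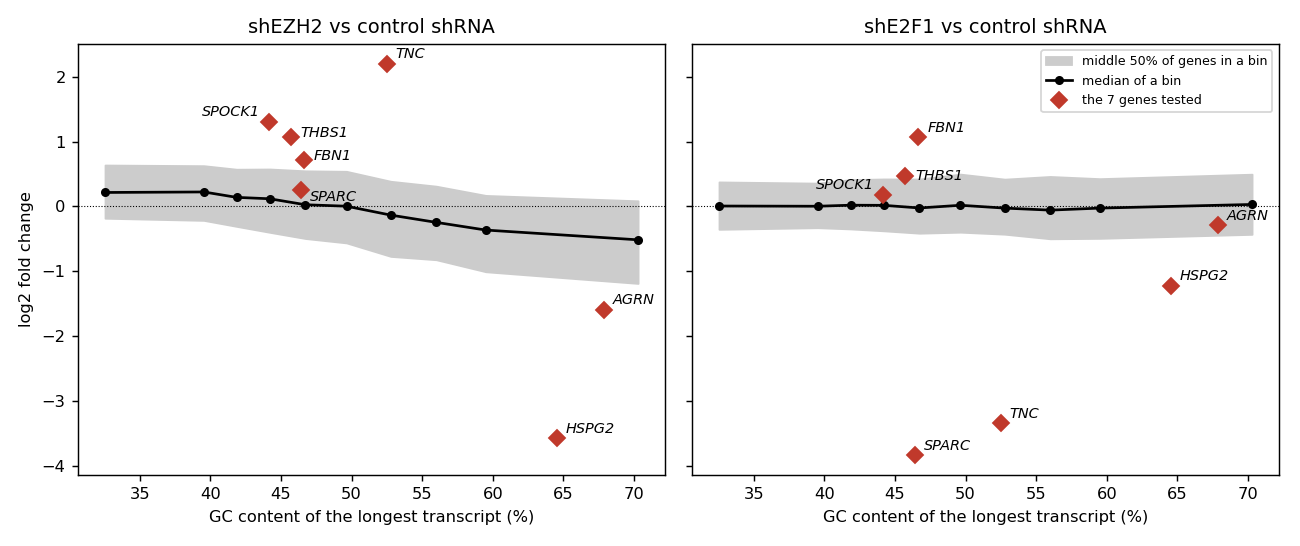
Log2 fold change in shEZH2 (left) and shE2F1 (right) against the GC content of the longest transcript, in percent, for the 7 tested members (red diamonds), with the median of each of 10 bins of genes by GC content (black) and the middle 50% of genes (grey). In shEZH2 the median fell from 0.22 in the lowest bin to -0.51 in the highest, where HSPG2 and AGRN lie, while in shE2F1 it stayed near 0.

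FBN1 (ENSG00000166147, chr15:48408313-48645721, minus strand) encodes fibrillin-1, the main component of extracellular microfibrils. It was at 100 and 82.0 CPM in control shRNA, 164 and 140 CPM in shEZH2, 193 and 191 CPM in shE2F1, and in the drug experiment 107 and 105 CPM with DMSO and 116 and 109 CPM with GSK126. In CPM no neighbours in the order of groups overlapped, from shE2F1 through shEZH2, GSK126 and DMSO to control shRNA. The order was the same in TPM, but there DMSO (20.3 and 18.6) overlapped both GSK126 (20.1 and 19.9) and control shRNA (19.4 and 14.8). FBN1 rose in shE2F1 by 1.07 ± 0.12 (edgeR adjusted p = 4.52e-05), and by 0.94, under 2-fold, without control shRNA replicate 2. In shEZH2 it was higher by 0.72 ± 0.12 (adjusted p = 0.000425), which is under 2-fold and was not called. The hairpins differed by -0.35 (adjusted p = 0.0235). In GSK126 the change was 0.08 ± 0.11 (adjusted p = 1). The change in shEZH2 exceeded that in GSK126 by 0.65 ± 0.17 (adjusted p = 0.0102). FBN2 (ENSG00000138829, chr5:128257909-128659185, minus strand), for the developmental fibrillin-2, had 1 and 0 counts in control shRNA, 0 and 3 in shEZH2, 1 and 2 in shE2F1, 3 and 3 in DMSO and 1 and 0 in GSK126, with no difference detectable at this depth.

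Counted together, 5 of the 7 tested members were called in shEZH2: TNC, THBS1 and SPOCK1 higher and HSPG2 and AGRN lower. Of all 15373 genes tested, 7.52% were called higher and 10.7% lower in this comparison. In shE2F1, 4 members were called, FBN1 higher and TNC, SPARC and HSPG2 lower, where 5.6% of all genes were called higher and 5.96% lower. Between the hairpins, TNC and SPARC were called higher and HSPG2 and AGRN lower in shEZH2, where 10.4% of genes were called higher and 12.9% lower. Since the knockdown contrasts entered the choice of the members, nothing is read from these counts. For the difference between the shEZH2 and GSK126 changes, AGRN was called lower, and HSPG2 also passed the threshold but is read as a description since its fall in shEZH2 chose it, where 13.8% of all 15773 genes tested were called in either direction. The median log2 change of the 7 members was 0.72 in shEZH2 and -0.29 in shE2F1, beside -0.02 and 0.00 over all genes tested. These medians rest on the same choice of members, and nothing is read from them either.

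**Figure D3:**
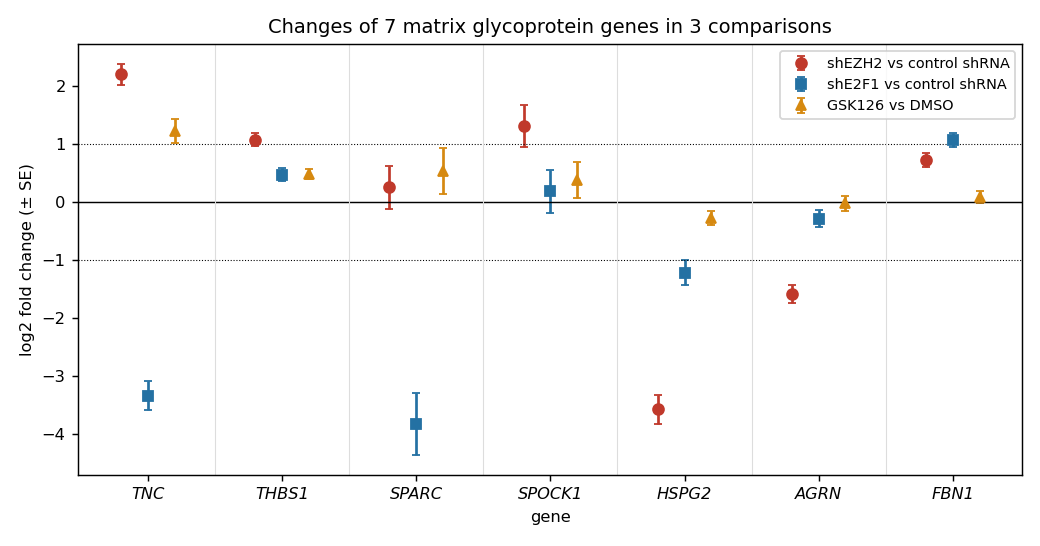
Log2 fold change of the 7 tested members with its standard error in shEZH2 (red circles) and shE2F1 (blue squares) against control shRNA and in GSK126 against DMSO (orange triangles), with dotted lines at 2-fold. TNC stood at 2.20, -3.34 and 1.22, SPARC at 0.25, -3.83 and 0.54, and HSPG2 at -3.57, -1.22 and -0.28.

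The shEZH2 and GSK126 comparisons share no library. All 7 tested members had the same sign in both, 5 higher and AGRN and HSPG2 lower, where 49% of the 14377 genes tested in both, and 53.9% of the 2630 of these called in shEZH2, had the same sign. The shEZH2 signs of TNC and HSPG2 entered the choice of the members, so that nothing is read from this count. The signs of SPARC in both comparisons, and of SPOCK1, FBN1 and AGRN in GSK126, were not resolved. GSK126 changes were 0.54 ± 0.39 for SPARC, 0.38 ± 0.31 for SPOCK1 and 0.08 ± 0.11 for FBN1. That of HSPG2 was -0.28 ± 0.12 (edgeR unadjusted p = 0.0525). SPARC stood at 0.25 ± 0.37 in shEZH2 and turned to -0.31 without shEZH2 replicate 2. AGRN stood at -0.03 ± 0.12 in GSK126, and its sign turned in 2 of the 4 fits that left out a library, at up to 0.09. With the effective length offset the GSK126 changes of AGRN and SPARC were 0.04 and -0.03.

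Across the 10 libraries, the levels of the members could be set beside each other as a description, since the points share groups and controls. HSPG2 and AGRN had a Pearson r of 0.98 on log2 CPM and TNC and SPARC one of 0.90. THBS1 ran opposite to HSPG2 and AGRN, at r = -0.91 and -0.89. The 3 genes whose pattern was most like that of TNC were TGFBI, SRPX and CD83, each at r = 0.99. TGFBI encodes a TGF-β-induced matrix adhesion protein that also belongs to the adhesive glycoproteins listed below. Nearest to HSPG2 were CENPBD2P, PLCB3 and EPN1 (r = 0.99 each), and nearest to AGRN were TCF25, CDC42EP2 and DVL2 (r = 0.99 each). THBS1 lay nearest to MARCHF3, AOX1 and CCDC80 (r = 0.98 to 0.99), SPARC to AFAP1L1, ENSG00000290689 and ZFTA (r = 0.98 to 0.99), SPOCK1 to PSKH1, SNAPC4 and CYP26B1 (r = 0.93 to 0.95), and FBN1 to DAB2, ARHGEF28 and ABCA5 (r = 0.97 to 0.98). Candidates were the 9710 or 9711 other genes with a mean of at least 10 CPM.

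The surrounding matrix genes were taken from 7 lists with 96 genes, of which 58 were tested in the knockdowns. These lists were chosen with earlier results of these data known. In shEZH2, 12 rose and 8 fell (34.5% called in all), where the shares over all genes were 7.52% higher and 10.7% lower. The median log2 change of the listed genes was 0.01 beside -0.02 over all genes. After the GC content and length correction, 16 of the listed genes and 2500 of all genes were called, in place of 20 and 2803. In shE2F1, 8 rose and 4 fell (20.7% called), where 5.6% of all genes were called higher and 5.96% lower, with a median of -0.04 beside 0.00. In GSK126, 0 of 56 were called, and the median was 0.08 beside -0.01. Between the hairpins, 12 were higher and 14 lower in shEZH2 (44.8% called), where 10.4% of all genes were called higher and 12.9% lower. For the difference between shEZH2 and GSK126, 6 were called higher and 8 lower (24.1% called), where 13.8% of all genes were called in either direction. The counts of each list below stand beside the same shares of all genes, and with few genes per list nothing particular to a list is read from them.

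Microfibril and elastic-fibre genes, the partners of the fibrillins, had 11 tested members, of which 5 rose and 2 fell in shEZH2 (7.52% and 10.7% over all genes) and 1 fell in shE2F1 (5.96% over all genes). LTBP1, a latent TGF-β binding protein, went from 14.5 and 13.9 CPM in control shRNA to 61.8 and 70.4 CPM in shEZH2, a rise of 2.21 ± 0.12 (adjusted p = 8e-07). Its relatives LTBP4 and LTBP3 fell by 1.63 and 1.61 on the log2 scale, so that genes of the same family moved apart. MFAP2 (1.52), FBLN1 (1.14), FBLN5 and EMILIN1 made up the rest of those that rose, and are named after their values were seen. FBLN5 went from 2 and 5 counts in control shRNA to 14 and 15 in shEZH2, and EMILIN1 from 3 and 4 to 19 and 19. LTBP2 fell in shE2F1 by 1.16 on the log2 scale, and stood at 0.45 in shEZH2.

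Among 10 tested adhesive and matricellular genes, CCN2, for connective tissue growth factor, took the same opposite directions as TNC. It was at 246 and 302 CPM in control shRNA, 1018 and 1453 CPM in shEZH2 and 110 and 119 CPM in shE2F1, a rise of 2.16 ± 0.16 (adjusted p = 3.42e-06) and a fall of -1.26 ± 0.16 (adjusted p = 1e-04). In GSK126 it stood at 393 and 577 CPM against 266 and 415 CPM in DMSO, groups that overlapped, at 0.51 (adjusted p = 1). TGFBI fell in shE2F1 by 1.45 on the log2 scale (adjusted p = 3.07e-05) and stood at 0.91 in shEZH2, not called. ECM1 fell in shEZH2 by 1.07 on the log2 scale. MATN2, for the adaptor matrilin-2, rose in shE2F1 by 1.31. NID2, CCN3 and CCN5, named after their values were seen, also rose there from few counts. NID2 had 1 and 2 counts in control shRNA and 35 and 38 in shE2F1, CCN3 13 and 7 against 138 and 85, and CCN5 9 and 4 against 86 and 46. In all, 1 of the 10 rose and 1 fell in shEZH2 (7.52% and 10.7% over all genes), and 4 rose and 2 fell in shE2F1 (5.6% and 5.96% over all genes).

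Receptors that bind the members had 11 tested genes, of which 4 rose and 1 fell in shEZH2 (7.52% and 10.7% over all genes) and 1 fell in shE2F1 (5.96% over all genes). ITGAV and ITGB3, which form the αv integrin that binds tenascin-C and thrombospondin-1, rose in shEZH2 by 1.29 ± 0.10 and 1.34 ± 0.22 (adjusted p = 3.64e-06 and 0.000455). DAG1, for dystroglycan, the receptor of perlecan and agrin, went from 225 and 192 CPM in control shRNA to 57.4 and 56.3 CPM in shEZH2, a fall of -1.89 ± 0.11 (adjusted p = 9.45e-07). In shE2F1 DAG1 stood at 0.19, not called. CD47 (1.08), the thrombospondin-1 receptor, and TLR4 (1.20) also rose in shEZH2, and LRP4, the agrin receptor, fell in shE2F1 (-2.13). These 3 are named after their values were seen.

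Enzymes that build or trim heparan sulfate, the chains that perlecan and agrin carry, had 14 tested genes, of which 1 rose and 4 fell in shEZH2 (7.52% and 10.7% over all genes) and 2 rose in shE2F1 (5.6% over all genes). B3GALT6, which adds a galactose of the linkage region, fell in shEZH2 by 1.60 on the log2 scale (adjusted p = 3.74e-05). B3GAT3, which completes the same linkage, rose in both knockdowns, by 1.29 and 1.04 (adjusted p = 4.6e-06 and 1.92e-05). HPSE, for the heparanase that cleaves the chains, was at 29.8 and 30.3 CPM in control shRNA, 12.8 and 9.61 CPM in shEZH2 and 64.8 and 66.9 CPM in shE2F1. In shEZH2 it fell by 1.45 on the log2 scale (adjusted p = 1.48e-05) and rose by 1.12 in shE2F1 (adjusted p = 4.62e-05), the reverse of the directions of TNC and CCN2. B4GALT7 (-1.41) and HS6ST1 (-1.17) also fell in shEZH2 and are named after their values were seen. Among 9 tested proteoglycans, 1 was called in each knockdown (11.1%). Over all genes, 7.52% were called higher and 10.7% lower in shEZH2, and 5.6% higher and 5.96% lower in shE2F1. The 1 called was LUM, for lumican, which rose in both. It had 5 and 2 counts in control shRNA, 58 and 69 in shEZH2 and 98 and 57 in shE2F1. LUM was named after its value was seen, is on the list of fibroblast markers, and reached no more than 6.05 TPM.

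**Figure D4:**
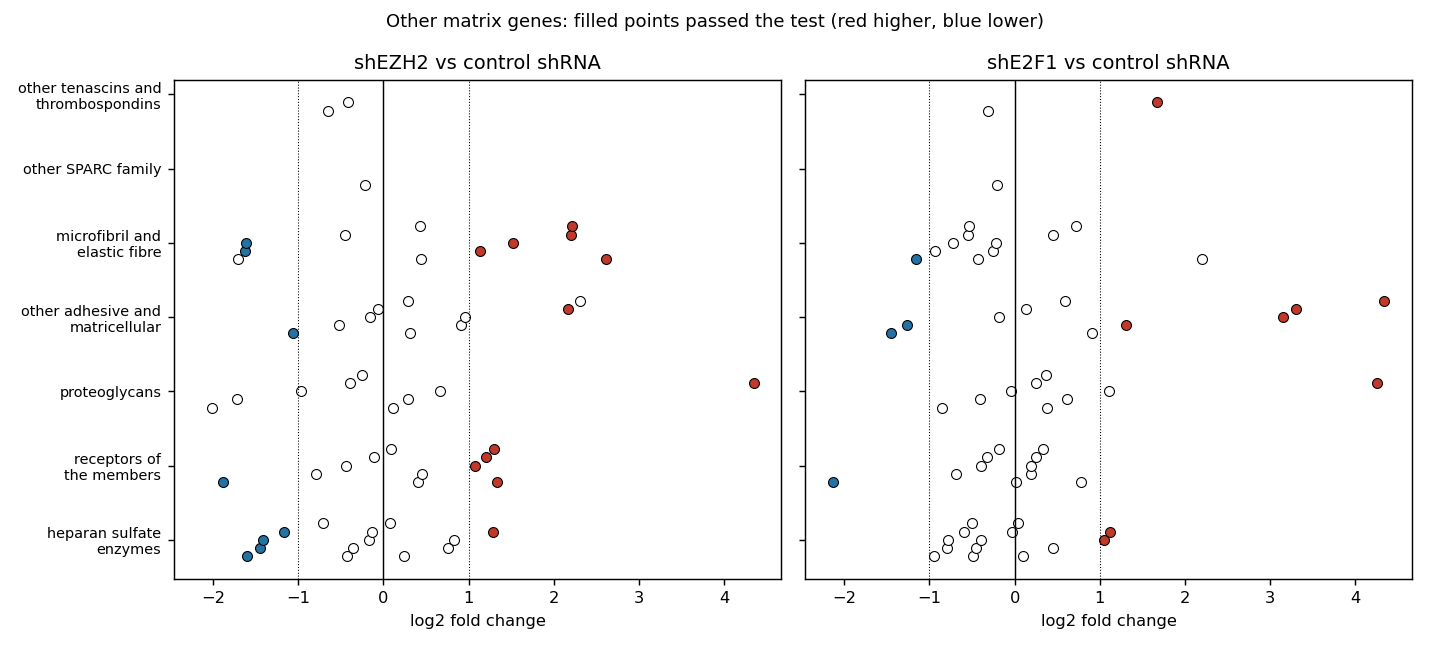
Log2 fold change of the 58 tested genes of 7 lists of other matrix genes in shEZH2 (left) and shE2F1 (right), with 1 point per gene, filled where the gene was called and dotted lines at 2-fold. In shEZH2, 12 points are red and 8 blue, and in shE2F1, 8 are red and 4 blue.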

How the data were processed

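Polyadenylated RNA was sequenced from MDA-MB-231 cells, and 18 records held 10 distinct libraries, since 8 records repeated another record value for value. The authors mapped reads to hg38 with an Ensembl annotation and estimated gene abundance with RSEM (STAR 2.7.2b and RSEM 1.3.1 in the submitters' processing notes). The deposited files hold expected counts, which share out reads that match more than 1 gene, TPM, and the effective gene length. Whether counting used strand is not given in the sources used here. Groups and their replicate numbers were taken from GEO's labels.

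Expected counts were rounded and analysed with edgeR 4.0.16 in R 4.3.3. The steps were filterByExpr on low counts, TMM scaling and the quasi-likelihood F-test, with p-values adjusted by Benjamini-Hochberg over every gene tested. One model held the 6 knockdown libraries, another the 4 drug libraries, and a last model all 10 for the difference between shEZH2 and GSK126. Calls required both an adjusted p under 0.01 and more than a 2-fold change, as in the study. CPM is the count scaled by the TMM library size, and the SE of a change was taken from its F statistic. TPM served to compare genes and was not tested. On simulated data with 200 genes changed 4-fold, 100% were recovered in shEZH2 against control shRNA among 14945 genes, with 1 false call. For GSK126 against DMSO, 100% were recovered among 14429 genes, with 0 false calls. The simulation gave all genes the same spread and no shift shared by a replicate number. It changed only genes with a mean of at least 50 counts. It therefore does not show how many changes the test would find in the measured libraries.

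The 9 members and the 7 lists were chosen with earlier results of these data known. Beside the members, EZH2 and E2F1, the named genes were up to 2 called genes per list, direction and knockdown with a mean of at least 100 counts, and 3 neighbours per member by Pearson r. Positions and symbols came from GENCODE release 44 (Ensembl 110), a later release than the authors used, with 99.9% of identifiers matched. GC content is that of the longest annotated transcript, and promoter sequences came from RefSeq (GRCh38.p14). The alternatives were DESeq2 1.42.0, its size factors, other filters and thresholds, other sets of libraries, the replicate block, effective length, GC content and length, and leaving out each library.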

Additional observations from a re-analysis of the deposited data

Results flagged for a closer look

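The change of AGRN in shEZH2 and its change in GSK126 differed by -1.55 on the log2 scale (edgeR quasi-likelihood test in a fit of all 10 libraries, adjusted p = 0.000325). AGRN stood at 212 and 171 CPM in shEZH2 against 661 and 480 CPM in control shRNA, and at 538 and 640 CPM in GSK126 against 562 and 639 CPM in DMSO. It was lower in 2 of 2 hairpin libraries than in both controls, while the inhibitor and solvent libraries overlapped. Without a library the difference ran from -1.77 to -1.31. The fall in shEZH2 alone, -1.59, was -1.28 after the GC content and length correction and -1.21 with the effective length offset.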

How the results depend on the processing

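At an adjusted p under 0.05 with no fold limit, the genes called were 8550 in shEZH2, 6879 in shE2F1, 9267 between the hairpins and 5780 for shEZH2 minus GSK126, the other matrix genes called were 41, 32, 46 and 30, and the members called were 7 between the hairpins and 5 for shEZH2 minus GSK126. The GC content and length correction left 3 members called in shEZH2, with and without the replicate block. For GSK126 against DMSO, 11 genes were called by DESeq2, 68 with the replicate block and 53 with the block and the GC correction. TNC was the 1 member called in each of these 3 fits (adjusted p = 0.000461, 1.97e-13 and 5.79e-09), and 2 other matrix genes were called in each of the blocked fits. The replicate numbers deviated together between DMSO and GSK126 (r = 0.43), with only 2 pairs, and little between knockdown groups (r = 0.02 to 0.10). The labels state no shared source for these numbers, so that they were not taken as pairs. Of the drug libraries, replicate 1 of both DMSO and GSK126 was among the repeated records, and replicate 2 of both was deposited once. Whether a batch was shared by replicate number was not tested. The low r of the knockdown groups does not bear on the drug experiment, where the calls depend on this choice. With the effective length offset, the GSK126 changes of SPARC and AGRN turned to -0.032 and 0.044, and SPARC in shEZH2 minus GSK126 to 0.23. The order of groups was the same in TPM for 3 of 9 members. Leaving out each library gave 3 to 4 members called in shEZH2, 1305 (without shEZH2 replicate 2) to 2414 genes for shEZH2 minus GSK126, and 37 to 43 genes, 0 to 1 members and 0 to 1 other matrix genes in GSK126. It also gave log2 changes from -0.31 to 0.63 for SPARC in shEZH2, -0.20 to 0.76 for SPOCK1 in shE2F1, -0.15 to 0.092 for AGRN in GSK126 and -0.85 to 0.10 for SPARC in shEZH2 minus GSK126. The cause of these shifts was not tested. Counts of 3 to 71 limit what can be said of SPARC and SPOCK1, and THBS2 and FBN2 lay too low for any test.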
